A study of Mus musculus with 12 samples.

Results

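The lipoprotein lipase system was described here by 7 genes, Lpl, Lmf1, Lmf2, Sel1l, Gpihbp1, Angptl4 and Vldlr. They were chosen by name from a table of read counts per gene that held 23420 genes, and all 7 were present and passed the filter on low counts that left 15306 genes for testing. The study measured mRNA by RNA-seq in inguinal white adipose tissue (iWAT), a subcutaneous fat depot in which cold exposure brings out thermogenic (beige) adipocytes, and asked what HIF2α, an oxygen-sensing transcription factor encoded by Epas1, does in these cells. The 12 libraries came from 4 groups of 3 mice each, named TN WT, TN AKO, cold WT and cold AKO. All mice were male C57BL/6 animals 10 weeks old, kept either thermoneutral (TN, 30 °C) for 1 week or in the cold (4-6 °C) for 3 days, so that temperature and length of exposure differ together between TN and cold. All 12 mice were HIF2a loxP/loxP, so the WT mice carried the floxed alleles too. The AKO mice also carried Adipoq-Cre, which acts in cells that express adiponectin, and the effects of the Cre and of the deletion cannot be told apart.

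Lipoprotein lipase is the enzyme that splits the triglycerides of circulating chylomicrons and very low density lipoproteins, so that fatty acids can enter the tissue. It is made mainly by adipocytes and muscle cells, folds in the endoplasmic reticulum (ER) with the help of LMF1 and of SEL1L, and is carried by GPIHBP1 across the capillary endothelium to the vessel lumen. ANGPTL4, which adipocytes secrete, inactivates the enzyme, and the VLDL receptor takes up triglyceride-rich particles beside it. White fat is known to store fatty acids released by this enzyme after a meal, and brown and beige fat take them up in the cold.

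Cold exposure raised 4 of the 7 genes, Lpl, Gpihbp1, Lmf1 and Vldlr, and it did so in both genotypes. Averaged over WT and AKO, mRNA was 3.32-fold higher in the cold for Vldlr, 2.38-fold for Lpl, 1.93-fold for Gpihbp1 and 1.80-fold for Lmf1. For each of the 4 genes all 6 cold mice lay above all 6 TN mice once the libraries were scaled to each other (TMM). As a plain share of all counts this held for Lpl, Lmf1 and Vldlr but not for Gpihbp1. Lmf2, Sel1l and Angptl4 did not pass the test in any comparison of temperature. No gene of the 7 passed the test between AKO and WT, either at TN or in the cold. These calls are edgeR quasi-likelihood tests with a Benjamini-Hochberg adjusted p under 0.05 over the 15306 genes. The counts are to be read against how many genes cold moved in this tissue, in either direction, since 48.8% of tested genes were called in the average over genotypes, 21.3% in WT alone and 27.0% in AKO alone. The 6 cold mice and the 6 TN mice did not overlap for 24.6% of tested genes.

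**Figure D1:**
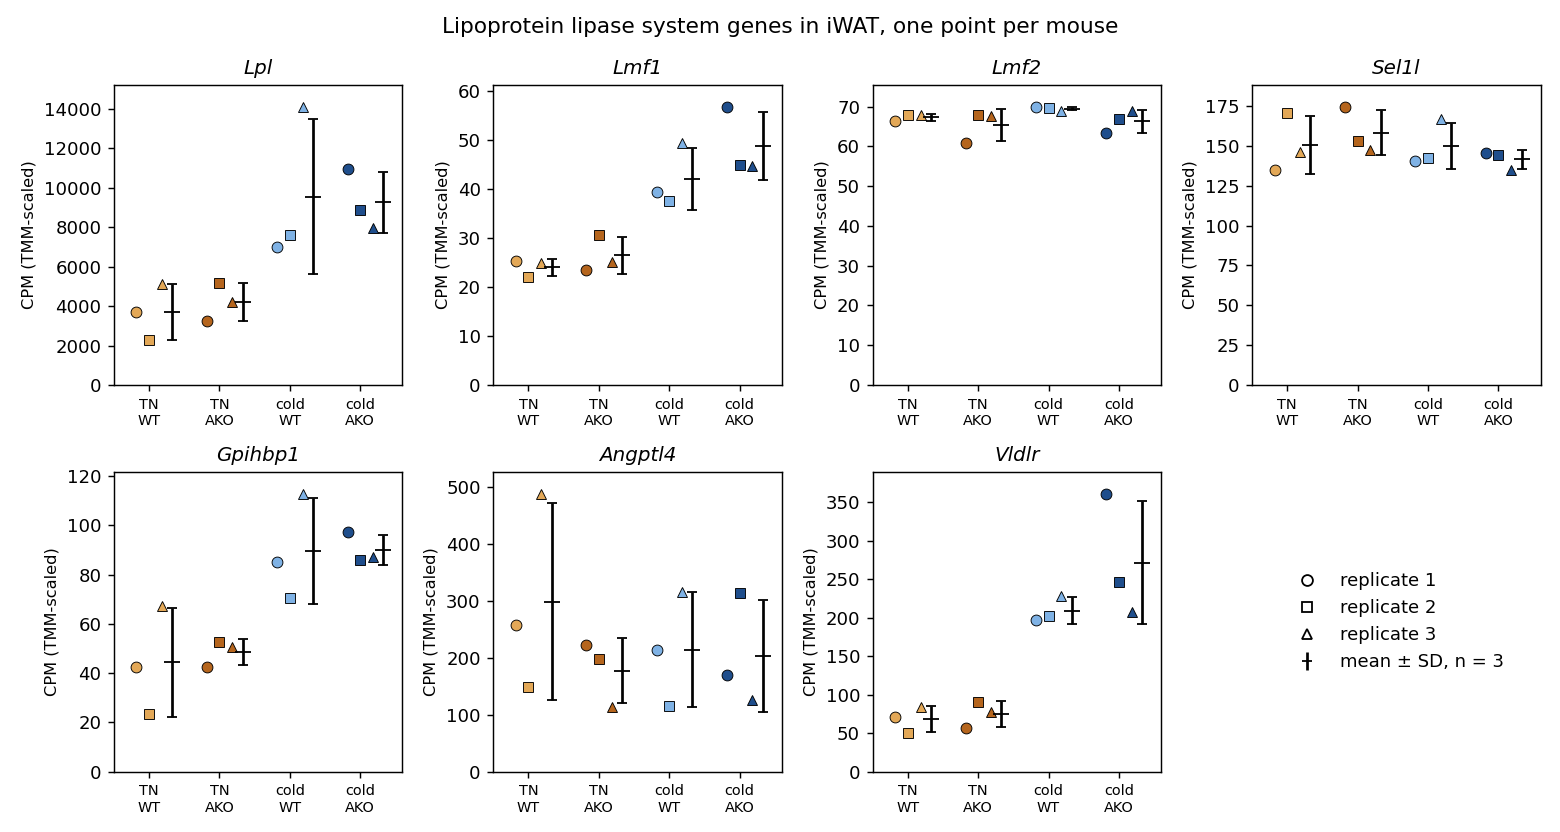
Level of each gene in every mouse, as CPM (counts relative to library size, with TMM scaling), with each panel on its own axis from 0. Points are single mice (circle, square and triangle for replicates 1, 2 and 3) and the bar beside them is the mean ± SD of 3. In the panels of Lpl, Lmf1, Gpihbp1 and Vldlr every cold mouse lies above every TN mouse, in those of Lmf2 and Sel1l the 4 group means lie close together, and in that of Angptl4 the mice of a group spread widely.

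The libraries held 22368316 to 35204631 counts, and each member had at least 603 counts in every library. The TMM factors were 0.829 to 0.991 in the cold libraries and 1.02 to 1.20 in the TN libraries, so they differed by temperature without overlap. The deletion was not seen in the count of Epas1, which covers the whole gene and all cells of the tissue. The reason was not tested, and the AKO labels were used as given. By RT-qPCR the authors report lower mRNA of this gene in iWAT of their AKO mice. Epas1 was at 360 ± 76.8 CPM (SD, n = 3) in TN WT and 348 ± 53.8 CPM in TN AKO, and at 627 ± 101 CPM in cold WT and 826 ± 139 CPM in cold AKO, so it was not lower in the libraries labelled AKO. Markers of the cells that define the tissue were found in every library. The 10 white adipocyte markers summed to at least 12634 CPM and the 10 endothelial markers to at least 981 CPM. The 8 thermogenic markers summed to 28.4 to 90.6 CPM in TN mice and to 3350 to 8582 CPM in cold mice. TN AKO replicate 2 and cold AKO replicate 1 stood apart by their skeletal muscle transcripts, in which 10 markers summed to 1901 and 1636 CPM, against 12.5 to 110 CPM in the other 10 libraries. Muscle cells also make Lpl and Vldlr, so values without both libraries are given where they differ. Macrophages also express Lpl. The 10 macrophage markers summed to 1754 to 3181 CPM in TN mice and 1487 to 2929 CPM in cold mice. In the cold 3 of 10 fell in the average over genotypes, 2 of 10 in AKO and 0 of 10 in WT. Called in either direction were 48.8%, 27.0% and 21.3% of all tested genes. The part of macrophages in the level of Lpl was not tested. TN WT replicate 3 stood apart by 5 epithelial markers, with 179 CPM against at most 10.7 CPM elsewhere. As these were pieces of whole tissue, fewer cells of a type and less RNA per cell could not be told apart. The labels number the mice but do not say more of how they were sampled, so the p-values measure the spread between these samples.

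Lpl, which encodes the enzyme itself (chr8:68880491-68907448, plus strand, GRCm38), was the most abundant of the 7. The TN WT mice had 3705, 2291 and 5106 CPM of Lpl and the TN AKO mice 3256, 5164 and 4201 CPM. In the cold the levels were 6992, 7579 and 14078 CPM in WT and 10951, 8880 and 7935 CPM in AKO. Replicate 3 of cold WT was the highest of all, and even the lowest cold mouse was above the highest TN mouse. The group means in rising order were 3701 ± 1407 (SD, n = 3) in TN WT, 4207 ± 954 in TN AKO, 9256 ± 1543 in cold AKO and 9549 ± 3932 CPM in cold WT, where neighbours of the same temperature differed by less than their spread. The log2 fold change from TN to cold was 1.37 ± 0.36 (SE) in WT and 1.14 ± 0.36 in AKO, with adjusted p = 0.0236 and 0.0399 by edgeR, and 1.25 ± 0.26 in the average over genotypes, with adjusted p = 0.00304. The call in one genotype alone rested on few mice. It was lost in WT without cold WT replicate 3, TN WT replicate 1 or TN WT replicate 2, with log2 fold changes of 0.98 to 1.37 and adjusted p of 0.0704 to 0.0893, and in AKO without any of 5 libraries (cold AKO replicates 1 and 2, TN AKO replicates 1 and 3, and TN WT replicate 1), with 0.98 to 1.17 and 0.0590 to 0.139. The average over genotypes stayed past the limit whichever library was left out, at 1.06 to 1.40. Leaving out both libraries with muscle transcripts put Lpl at 1.37 in WT (adjusted p = 0.0332, edgeR) and 1.27 in the average (adjusted p = 0.0106), while in AKO its value was 1.17 and the call was lost (adjusted p = 0.118).

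Few transcripts of iWAT were as frequent. Reads of Lpl made up 0.275% to 1.17% of all counts in a library. Per kilobase of its principal transcript, Lpl ranked 30 of 19367 genes in TN WT, 26 in TN AKO, 10 in cold WT and 13 in cold AKO. It was first of the 7 in 12 of 12 libraries on this scale.

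The genes of the ER step, in which the enzyme folds and pairs into its active form, did not move together. LMF1 is a membrane protein of the ER without which lipase stays inactive, LMF2 is its paralog with a less settled role, and SEL1L is the adaptor of the HRD1 ubiquitin ligase that also binds LMF1 and helps lipase to leave the ER. Lmf1 (chr17:25579085-25662826, plus strand) and Lmf2 (chr15:89351004-89355659, minus strand) are shown with their promoters, because the paralogs differed in their response to cold. Each run holds 250 bases before and 50 after the RefSeq start site on GRCm38.p6, read in the direction of transcription. Capitals mark the core of the hypoxia response element, ACGTG or GCGTG on either strand, the letters that HIF factors are known to bind.
Lmf1 promoter, chr17:25578924-25579223, plus strand: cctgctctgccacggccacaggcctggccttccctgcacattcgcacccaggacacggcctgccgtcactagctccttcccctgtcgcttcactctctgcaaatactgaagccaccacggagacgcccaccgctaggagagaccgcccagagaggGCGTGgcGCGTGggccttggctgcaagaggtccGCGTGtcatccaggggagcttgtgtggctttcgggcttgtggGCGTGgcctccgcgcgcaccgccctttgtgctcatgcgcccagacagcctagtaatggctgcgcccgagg
Lmf2 promoter, chr15:89355610-89355909, minus strand: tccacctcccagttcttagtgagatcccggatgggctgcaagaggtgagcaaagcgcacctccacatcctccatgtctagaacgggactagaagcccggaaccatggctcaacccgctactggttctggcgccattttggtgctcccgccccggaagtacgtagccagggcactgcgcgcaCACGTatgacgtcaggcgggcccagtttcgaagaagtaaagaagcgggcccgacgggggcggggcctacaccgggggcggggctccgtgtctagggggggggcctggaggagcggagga
The Lmf1 window held 4 such cores, all GCGTG, and the Lmf2 window 1, an ACGTG on the reverse strand, which reads CACGT in the run shown. The Sel1l window (chr12:91849108-91849407, minus strand) held 1. Of 32851 promoters of this length in the RefSeq set 43.8% held at least 1 core, and a match of these letters is a description and no evidence of binding.

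For Lmf1 the levels in single mice were 25.2, 22.0 and 24.8 CPM in TN WT and 23.5, 30.7 and 25.2 CPM in TN AKO. The cold WT mice had 39.4, 37.6 and 49.4 CPM, and the cold AKO mice 56.7, 44.8 and 44.8 CPM. All 6 cold mice were above all TN mice, and the TN AKO mouse and the cold AKO mouse with the highest values were both among the libraries with muscle transcripts. The log2 fold change was 0.81 ± 0.14 (SE, adjusted p = 0.00369, edgeR) in WT, 0.88 ± 0.14 (adjusted p = 0.00181) in AKO and 0.85 ± 0.10 (adjusted p = 0.000117) in the average over genotypes. Without both libraries with muscle transcripts the average was 0.85 as well.

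Lmf2 varied little in CPM, which includes TMM scaling. Before that scaling, its share of all counts was 0.00537% to 0.00689% in cold mice and 0.00693% to 0.00814% in TN mice. With that share every cold mouse was below every TN mouse. In CPM, Lmf2 was at 66.3, 67.9 and 67.8 in TN WT and at 60.7, 67.8 and 67.7 in TN AKO. In the cold it was at 69.9, 69.6 and 69.0 CPM in WT and at 63.2, 66.9 and 68.9 CPM in AKO. The 3 cold WT mice were all above the TN WT mice, but edgeR gave adjusted p = 0.653. The log2 fold change from TN to cold, averaged over genotypes, was 0.03 with a 95% interval from -0.08 to 0.14, which leaves out the change of Lmf1. The ratio of Lmf2 to Lmf1 within a mouse does not depend on library size. On the log2 CPM scale it was 1.49 ± 0.12 (SD, n = 3) in TN WT, 1.31 ± 0.15 in TN AKO, 0.73 ± 0.22 in cold WT and 0.45 ± 0.26 in cold AKO. Every cold mouse was below every TN mouse, and the ratio fell by 0.81 from TN to cold. In an exact two-sided permutation test of labels within genotype, p was 0.005, the smallest that the 400 relabellings allow, and 0.0175 after adjustment over 7 ratio tests. Without both libraries with muscle transcripts the ratio fell by 0.78, with p = 0.0167 by the same exact permutation test, the smallest that 120 relabellings allow, and adjusted p = 0.0583, no longer past the limit.

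Sel1l (chr12:91806043-91849157, minus strand) was also level in CPM, which includes TMM scaling. As a share of all counts, before that scaling, it was 0.0124% to 0.0141% in cold mice and 0.0150% to 0.0204% in TN mice. Its group means were 150 ± 18.2 CPM (SD, n = 3) in TN WT, 158 ± 14.1 in TN AKO, 150 ± 14.6 in cold WT and 142 ± 5.78 in cold AKO, and none of these neighbours differed beyond the spread. The log2 fold change from TN to cold was -0.00 in WT, with a 95% interval from -0.25 to 0.24, and -0.16 in AKO, from -0.41 to 0.09. The 3 cold AKO mice, at 146, 144 and 135 CPM, were all below the TN AKO mice, at 174, 153 and 148 CPM, but edgeR gave adjusted p = 0.289. Of 12 further genes that work with Sel1l in ER quality control, 2 rose and 1 fell in the average over genotypes. These were Derl1, a membrane protein of the retrotranslocation complex, with a log2 fold change of 0.53 (adjusted p = 0.0143), Erlec1, a lectin that recognises glycans, with 0.32 (adjusted p = 0.0145), and Edem1, which takes misfolded glycoproteins to degradation, with -0.34 (adjusted p = 0.00951), all by edgeR. The median of the 12 was -0.11, beside -0.05 over all tested genes, of which 48.8% were called in this average.

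Gpihbp1 (chr15:75596628-75599481, plus strand) encodes the protein of capillary endothelium that holds lipoprotein lipase and moves it to the lumen. The TN WT mice had 42.5, 23.4 and 67.3 CPM and the TN AKO mice 42.7, 52.8 and 50.7 CPM. In cold WT mice the values were 85.2, 70.5 and 113 CPM, and in cold AKO mice 97.1, 85.8 and 87.3 CPM. TN WT replicate 3, at 67.3 CPM, came near the lowest cold mouse, at 70.5 CPM, but the groups did not overlap in CPM. As a share of all counts, before TMM scaling, TN WT replicate 3 (0.00719%) was above cold WT replicate 2 (0.00698%). Gpihbp1 rose by a log2 fold change of 1.01 ± 0.30 (SE, adjusted p = 0.0364, edgeR) in WT, 0.89 ± 0.30 (adjusted p = 0.0488) in AKO and 0.95 ± 0.21 (adjusted p = 0.00485) in the average over genotypes. The calls in single genotypes were close to the limit. They were lost in WT without any of 7 libraries (cold AKO replicates 2 and 3, cold WT replicates 1 and 3, TN AKO replicate 3, TN WT replicates 1 and 2), with 0.69 to 1.05 and adjusted p of 0.0506 to 0.142, and in AKO without any of 8 (all 6 AKO libraries, cold WT replicate 1 and TN WT replicate 1), with 0.80 to 0.95 and 0.0637 to 0.156. Leaving out 1 library moved the average over genotypes to 0.79 at the lowest and 1.16 at the highest, and it stayed past the limit. When both libraries with muscle transcripts were left out, the average was 0.95 (adjusted p = 0.0195, edgeR), and the calls in WT (adjusted p = 0.0569) and AKO (0.160) were lost.

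The rise of Gpihbp1 was larger than that of the mean of 10 endothelial markers. The 10 endothelial markers summed to 981 to 1278 CPM in TN mice and to 1183 to 1382 CPM in cold mice. In the average over genotypes 3 of the 10 passed the test, where 48.8% of all tested genes did. These were Emcn, Kdr and Egfl7, with log2 fold changes of 0.53, 0.36 and 0.21. The values of the 10 markers ran from -0.31 to 0.53 with a median of 0.09, and 1 of them was below 0. The log2 ratio of Gpihbp1 to the mean of these markers was -1.04 ± 0.53 (SD, n = 3) in TN WT and -0.73 ± 0.01 in TN AKO, and -0.01 ± 0.27 and -0.05 ± 0.20 in cold WT and cold AKO. All 6 cold mice lay above all 6 TN mice, and the ratio was 0.86 higher in the cold, or 1.81-fold (exact permutation within genotype, p = 0.005, the smallest possible; adjusted p = 0.0175). TN WT replicate 2, with the lowest Gpihbp1 of all, also had the lowest ratio. Leaving out 1 library gave differences between 0.72 and 0.99, and leaving out both libraries with muscle transcripts gave 0.81, with the smallest p that 120 relabellings allow, 0.0167 by the exact permutation test, and adjusted p = 0.0583, no longer past the limit.

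Lpl and Gpihbp1 went side by side from mouse to mouse. Their ratio on the log2 scale was -6.43 ± 0.18 (SD, n = 3) in TN WT, -6.41 ± 0.18 in TN AKO, -6.69 ± 0.31 in cold WT and -6.67 ± 0.16 in cold AKO. The difference between cold and TN was -0.26 and did not pass the exact permutation test (p = 0.06, adjusted p = 0.084). Without cold WT replicate 1 it was -0.34, with adjusted p = 0.028. The mouse with the highest Lpl was also the mouse with the highest Gpihbp1 in 4 of 4 groups, whereas the lowest mouse was the same in 2 of 4. The 2 profiles, each centred on its mean, lay a root mean square distance of 0.22 log2 units apart over the 12 libraries. Gpihbp1, although a gene of endothelium, lay nearer to the mean profile of the 10 white adipocyte markers, at 0.18, than to that of the 10 endothelial markers, at 0.51. For Lpl these distances were 0.25 and 0.64. In the mouse with the highest mean of the white adipocyte markers, Lpl, Gpihbp1 and Vldlr were also the highest of the group in 4 of 4 groups. In 3 of the 4 this mouse was a library that stood apart, TN AKO replicate 2 and cold AKO replicate 1 by muscle transcripts and TN WT replicate 3 by epithelial markers, and their part in this order was not tested. With the mean of the endothelial markers, Lpl, Gpihbp1 and Vldlr each shared the highest mouse in 3 of 4 groups. The lowest mouse was shared in 3 of 4 groups with either list, for each of the 3 genes. These are descriptions of 12 libraries, in which the difference between TN and cold enters every distance.

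**Figure D2:**
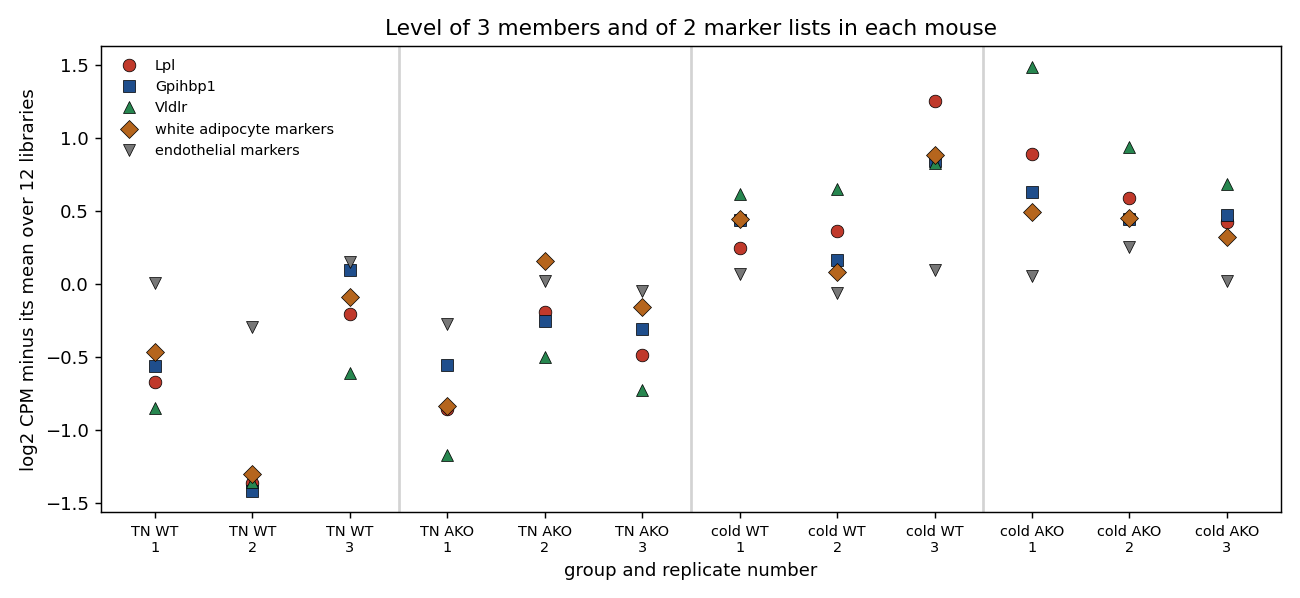
Level of Lpl, Gpihbp1 and Vldlr and the mean level of 10 white adipocyte and 10 endothelial markers in each mouse, as log2 CPM minus the mean over the 12 libraries, with mice ordered by group along the horizontal axis. Within each group the 3 genes and the white adipocyte markers have their highest value in the same mouse (TN WT 3, TN AKO 2, cold WT 3 and cold AKO 1), and the endothelial markers span less from TN to cold.

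The ratio of Lpl to the white adipocyte markers was slightly higher in the cold. The 10 markers summed to 12634 to 31591 CPM in TN mice and to 25909 to 49658 CPM in cold mice. In the average over genotypes 6 of 10 rose in the cold, where 48.8% of all tested genes were called in either direction. The log2 fold changes of the 10 markers ran from -0.13 to 1.76, and 1 of them was below 0. Their median was 0.79, beside -0.05 over all tested genes. The log2 ratio of Lpl to the mean of the 10 markers was 1.78 ± 0.07 (SD, n = 3) in TN WT, 1.67 ± 0.19 in TN AKO, 2.06 ± 0.31 in cold WT and 2.12 ± 0.16 in cold AKO. The groups overlapped, since cold WT replicate 1, at 1.71, lay within the TN range. The difference was 0.36, or 1.29-fold (exact permutation, p = 0.02, adjusted p = 0.035). Without any of 9 libraries (all but cold WT replicate 1, TN AKO replicate 1 and TN WT replicate 2) the adjusted p was 0.0525 to 0.07, with differences of 0.31 to 0.39. Without both libraries with muscle transcripts the difference was 0.29 (adjusted p = 0.0875).

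Angptl4 (chr17:33773750-33781830, minus strand) encodes the inhibitor of the enzyme, whose mRNA is known to rise with fasting and with low oxygen. The TN WT mice had 258, 150 and 488 CPM and the TN AKO mice 222, 198 and 113 CPM. In the cold, WT mice had 214, 115 and 316 CPM and AKO mice 170, 315 and 127 CPM. Each group held mice that differed by a large factor, with a coefficient of variation of 32.3% to 57.8%, and all 4 groups overlapped. The log2 fold change from TN to cold was -0.48 in WT, with a 95% interval from -1.56 to 0.60, and 0.20 in AKO, from -0.88 to 1.28. The interval in WT leaves out the rise of Lpl in WT, whereas that in AKO reaches past the rise of Lpl in AKO. TN WT replicate 3 set the sign in WT, where the value was 0.07 without it. In AKO the sign turned without cold AKO replicate 2, to -0.26, and without TN AKO replicate 3, to -0.04.

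The ratio of Angptl4 mRNA to Lpl mRNA was lower in the cold. In the average over genotypes Angptl4 itself was not called (log2 fold change -0.14, adjusted p = 0.757, edgeR), while Lpl rose by 1.25. The log2 ratio of Angptl4 to Lpl was -3.72 ± 0.29 (SD, n = 3) in TN WT, -4.60 ± 0.68 in TN AKO, -5.52 ± 0.51 in cold WT and -5.60 ± 0.68 in cold AKO. In WT all cold mice were below all TN mice, while in AKO cold replicate 2, at -4.82, was above TN replicate 3, at -5.22. The ratio was 1.40 lower in the cold, or 2.64-fold (exact permutation within genotype, p = 0.01, adjusted p = 0.0233), and it stayed past the limit whichever library was left out, with differences of -1.59 to -1.22. Between genotypes the ratio was 0.48 lower in AKO, which did not pass the test (exact permutation within temperature, p = 0.18, adjusted p = 0.21). Without both libraries with muscle transcripts the difference between cold and TN was -1.32, with p = 0.0333 by exact permutation and adjusted p = 0.0778.

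**Figure D3:**
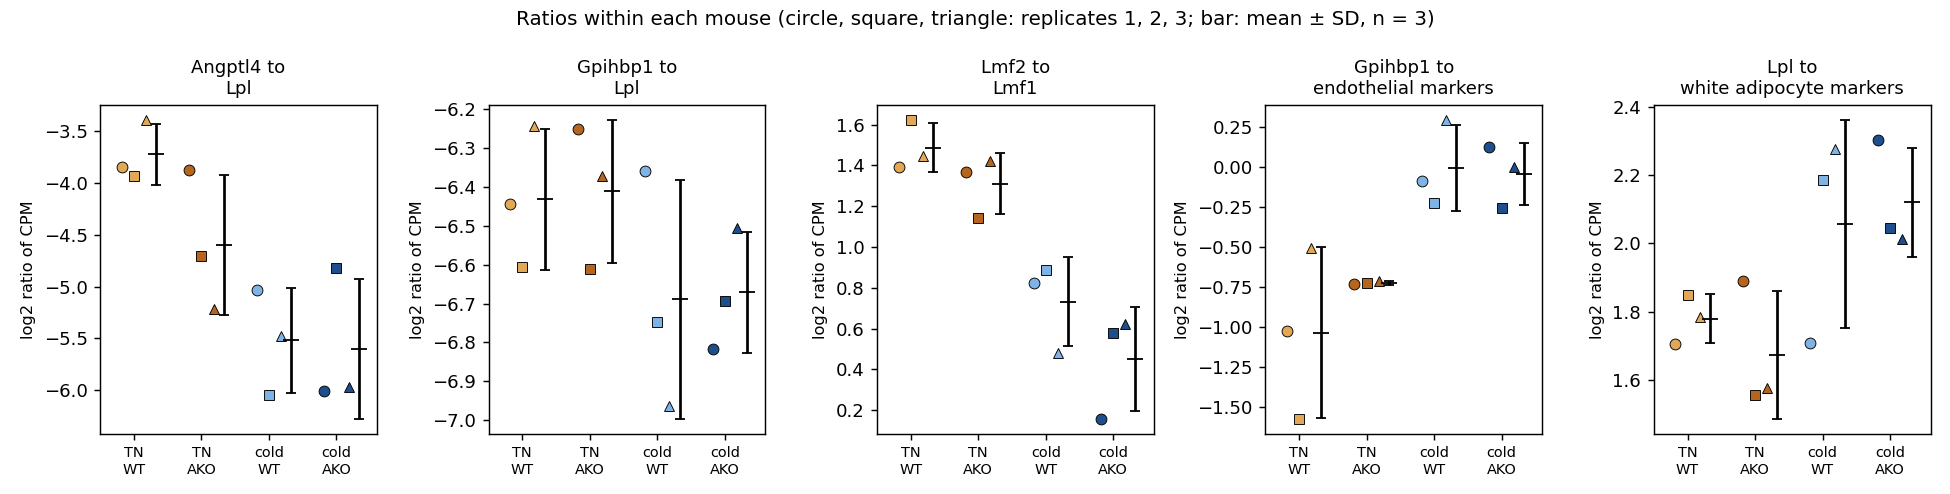
Log2 ratio of CPM within each mouse for 5 pairs of genes or marker lists, each panel on its own axis. Points are single mice and the bars are the mean ± SD of 3. The ratios of Lmf2 to Lmf1 and of Gpihbp1 to endothelial markers separate all cold mice from all TN mice, that of Angptl4 to Lpl separates them in WT, and that of Gpihbp1 to Lpl overlaps.

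Of 8 further genes that restrain the enzyme or cleave ANGPTL proteins and the enzyme, 3 rose in the average over genotypes and none fell. Of all tested genes 48.8% were called in that average, in either direction. Angptl8, an insulin-responsive partner of the ANGPTL inhibitors, was 4.17-fold higher in the cold (log2 fold change 2.06 ± 0.57, adjusted p = 0.0132, edgeR). Its values were 9.07, 2.78 and 11.8 CPM in TN WT, 4.52, 33.8 and 30.0 CPM in TN AKO, 26.8, 112 and 37.7 CPM in cold WT and 53.1, 20.7 and 86.6 CPM in cold AKO. TN AKO replicates 2 and 3 reached into the range of the cold mice. In WT the cold mice were 7.42-fold higher (adjusted p = 0.0331, edgeR), and in AKO the fold was 2.34 and was not called (adjusted p = 0.251), while the interaction did not pass the test. Furin, a convertase that cleaves lipoprotein lipase and ANGPTL4, was 1.61-fold higher (0.68 ± 0.11, adjusted p = 0.000890), and its 6 cold mice, at 156 to 221 CPM, were all above the TN mice, at 93.0 to 134 CPM. Apoc1, an apolipoprotein that inhibits lipolysis, was 1.86-fold higher (0.89 ± 0.28, adjusted p = 0.0234). The median log2 fold change of the 8 was 0.51, beside -0.05 over all tested genes.

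Transcripts of activators were scarce in the tissue. The apolipoproteins that activate the enzyme are known to be made chiefly by liver. Of 4 genes for activators and lipoprotein ligands, Apoa5 and Apob did not pass the filter on low counts, with 4 and 42 counts in all 12 libraries together. Apoc2, the cofactor of the enzyme, was at 2.98 CPM in the cold and 0.744 CPM at TN and was called higher (log2 fold change 1.98 ± 0.49, adjusted p = 0.00748), with the cold mice all above the TN mice. Apoe, a ligand of the receptors, had a log2 fold change of -0.21 and was not called. Of 6 genes for traffic and surface binding of the enzyme 1 was called, Hspg2, which encodes the heparan sulfate proteoglycan perlecan, with 0.29 (adjusted p = 0.0254). Sort1, a sorting receptor, was just outside the limit with 0.51 (adjusted p = 0.0504). In the average over genotypes 48.8% of all tested genes were called.

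Vldlr, the receptor gene (chr19:27216484-27254231, plus strand), showed the largest change of the 7. Its promoter at the first RefSeq start is shown for comparison with the Lmf promoters. It held neither ACGTG nor GCGTG, nor did the window at its other start, which says only that these letters are not in these windows.
Vldlr promoter, chr19:27216234-27216533, plus strand: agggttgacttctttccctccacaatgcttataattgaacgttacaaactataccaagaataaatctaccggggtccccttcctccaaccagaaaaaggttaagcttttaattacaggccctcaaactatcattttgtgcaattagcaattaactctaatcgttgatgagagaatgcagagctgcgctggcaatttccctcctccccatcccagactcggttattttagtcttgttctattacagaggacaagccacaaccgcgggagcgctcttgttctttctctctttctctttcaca
The TN WT mice had 71.4, 50.1 and 84.2 CPM of Vldlr and the TN AKO mice 57.0, 91.2 and 77.9 CPM. In the cold the level was 197, 202 and 229 CPM in WT and 361, 247 and 207 CPM in AKO. The lowest cold mouse, at 197 CPM, was far above the highest TN mouse, at 91.2 CPM, and cold AKO replicate 1, with its muscle transcripts, was the highest of all. The log2 fold change was 1.61 ± 0.25 (SE, adjusted p = 0.00200, edgeR) in WT, 1.85 ± 0.25 (adjusted p = 0.000658) in AKO and 1.73 ± 0.17 (adjusted p = 4.31e-05) in the average over genotypes. Without both libraries with muscle transcripts the value in AKO was 1.75 (adjusted p = 0.00380).

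Per kilobase of principal transcript, the rise moved Vldlr past the other low members. In 6 of 6 TN libraries Vldlr was below Sel1l on this scale, and in 6 of 6 cold libraries it was above it, also when the union of all exons was taken as length. The mean of Vldlr per kilobase went from 8.60 and 9.46 CPM in TN WT and TN AKO to 26.3 and 34.1 CPM in cold WT and cold AKO, while Sel1l was at 22.5 to 25.1 CPM in all 4 groups. Lrp8, the closest relative of Vldlr, went the other way in the average over genotypes, with a log2 fold change of -0.88 (adjusted p = 0.0140, edgeR), and Mylip, a ubiquitin ligase that sends the VLDL receptor to degradation, had -0.34 (adjusted p = 0.0124). Of 6 tested genes of the receptor family and its turnover, 2 were called higher and 2 lower in this average. Among 4 other lipases, 2 rose and 1 fell. Lipa, the lysosomal acid lipase, rose by 0.65 (adjusted p = 0.000803) and Lipg, the endothelial lipase, by 0.71 (adjusted p = 0.0377). In WT alone Lipg was not called (adjusted p = 0.122, edgeR). Lipc was called lower at only 0.314 CPM in the cold and 1.27 CPM at TN. Of all tested genes 48.8% were called in the average over genotypes, in either direction.

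The comparison of AKO with WT sets floxed mice with Adipoq-Cre against floxed mice without it. Of the 7 genes, 0 passed the adjusted limit with edgeR, DESeq2 or limma voom at TN, in the cold or in the average over temperatures, and 0 passed for the interaction of genotype and temperature. The background was low as well, with 0.00653% of the tested genes called (1 gene) at TN, 0.00653% in the cold, 0.00653% in the average over temperatures and 0% for the interaction. At an unadjusted p under 0.05, edgeR and DESeq2 called 0 of the 7 in each of these comparisons, where 2.91% of all genes passed at TN, 2.95% in the cold, 3.64% in the average and 2.14% for the interaction by edgeR. Limma voom gave 1 of the 7 at TN, Angptl4, with unadjusted p = 0.0419 and adjusted p = 0.504. No gene of the wider lists of the lipase pathway passed the adjusted test of edgeR between AKO and WT either. At an unadjusted p under 0.05 these lists had 0 genes at TN and 2 in the cold, Os9, an ER lectin, and Mylip, both named here after their values were seen. Mylip had a log2 difference of -0.32 between AKO and WT in the cold, with the 3 AKO mice all below the WT mice, and edgeR gave unadjusted p = 0.0362 and adjusted p = 1.00. It was also the 1 gene of these lists with an unadjusted p under 0.05 for the interaction.

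**Figure D4:**
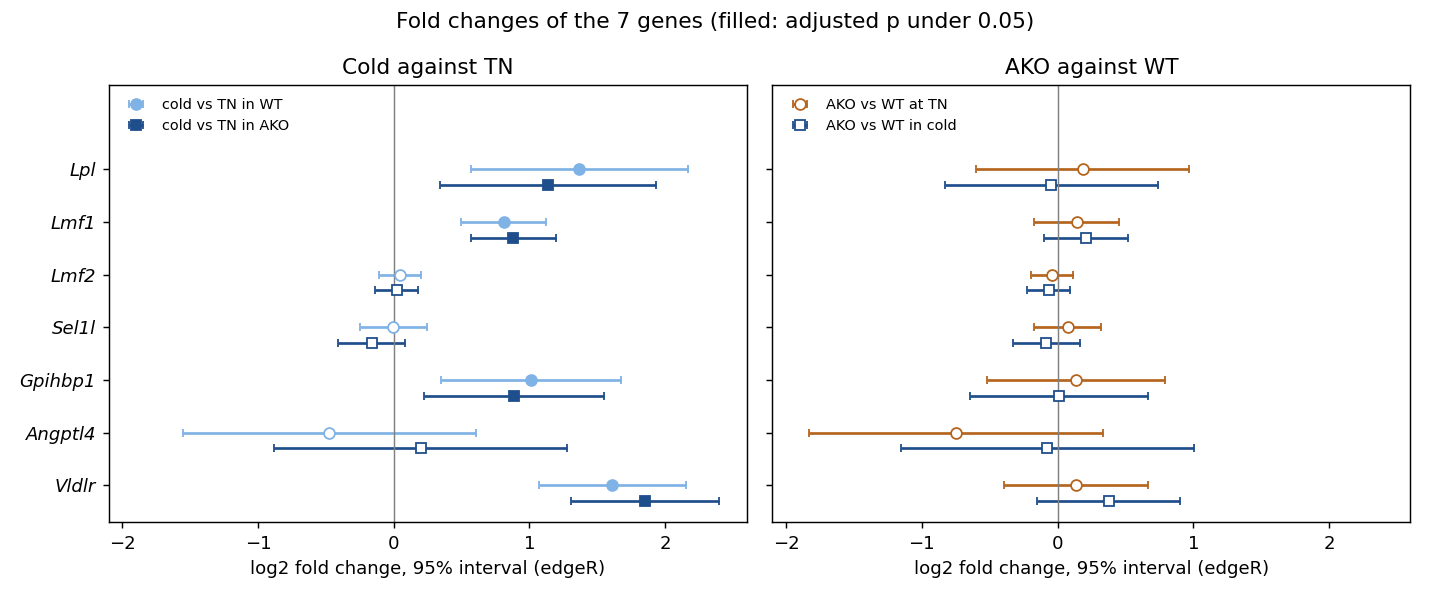
Log2 fold change of each gene with its 95% interval from edgeR, cold against TN in WT and in AKO on the left and AKO against WT at TN and in the cold on the right. Filled marks have an adjusted p under 0.05. The 4 genes Lpl, Lmf1, Gpihbp1 and Vldlr are filled in both genotypes on the left, and every interval on the right includes 0.

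The intervals show what 3 mice per group could have resolved. For Lmf2 the log2 difference of AKO from WT was -0.04 at TN (95% interval -0.20 to 0.12) and -0.07 in the cold (-0.22 to 0.09), and for Sel1l 0.07 (-0.17 to 0.32) and -0.08 (-0.33 to 0.16). Lmf1 was at 0.14 (-0.17 to 0.45) and 0.21 (-0.10 to 0.52). The intervals were wider for Gpihbp1, with 0.13 (-0.52 to 0.79) and 0.01 (-0.64 to 0.66), and for Lpl, with 0.18 (-0.60 to 0.97) and -0.05 (-0.83 to 0.74). For Vldlr the difference was 0.14 (-0.39 to 0.67) at TN and 0.38 (-0.15 to 0.90) in the cold. Without cold AKO replicate 1, the library with muscle transcripts and the highest Vldlr, the latter was 0.12. Angptl4 had the widest interval, with -0.75 (-1.83 to 0.33) at TN and -0.08 (-1.15 to 1.00) in the cold. Its value at TN was -0.20 without TN WT replicate 3, the mouse at 488 CPM. In the cold Lmf2 was the 1 gene of the 7 in which the groups did not overlap, with AKO lower in 3 of 3 mice, where 7.53% of tested genes had groups that did not overlap. At TN it was 0 of 7, where 7.69% did.

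Genes whose profile over the 12 libraries was most like that of each called member were sought among 13143 other genes with a mean of at least 50 counts, by the root mean square distance of centred log2 CPM. For Lpl they included Pex13, a peroxisomal import factor, and Dolk, a dolichol kinase, at distances of 0.08 and 0.10 log2 units, where the SD of Lpl itself was 0.77. Pex13 went from 52.1 and 58.3 CPM in TN WT and TN AKO to 126 and 126 CPM in cold WT and cold AKO. Nearest to Gpihbp1 were Fah, Bscl2, the seipin gene of lipid droplet formation, and Chchd6, a mitochondrial cristae protein, at 0.13 to 0.14 and with an SD of 0.64. Lmf1 was nearest to Uba3, Edf1 and Itfg3, at 0.07 each and with an SD of 0.48. Vldlr was nearest to 1700021F05Rik, Etfa, a subunit of the electron transfer flavoprotein of mitochondrial fat oxidation, and Dnaja3, a mitochondrial chaperone, at 0.09, 0.09 and 0.10 and with an SD of 0.96. The group means of Etfa were 135 and 150 CPM at TN and 422 and 509 CPM in the cold, in the same order of the 4 groups as those of Vldlr. Etfa was picked for its likeness to Vldlr in these same libraries, so the shared order is not a separate result.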

How the data were processed

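The authors deposited raw read counts per gene for each of 12 libraries and as 1 table of the series, and both held the same counts in 12 of 12 libraries. Per the submitters' notes, the authors trimmed reads with Trim Galore 0.4.4, mapped them to GRCm38 with STAR 2.6.1d, counted them with HTSeq 0.13.5 and used DESeq2 1.30.0. The annotation and the strand setting are not given in the sources used here, but no member overlaps another gene in GENCODE M21. Rows of unassigned reads (21.9% to 27.0% of all) were left out.

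Counts were tested with edgeR 4.0.16 in R 4.3.3 (TMM factors 0.829 to 1.20, filterByExpr with a minimum count of 10, quasi-likelihood tests of contrasts in 1 fit of 4 groups, Benjamini-Hochberg over 15306 genes, limit 0.05). Log2 CPM used a prior count of 2. CPM per kilobase used the longest principal transcript of GENCODE M21, as the union of exons includes retained introns. Ratios were tested by exact permutation within the other factor, adjusted over 7 tests. Alternatives were DESeq2 1.42.0, limma 3.58.1 (voom with quality weights), RLE scaling, other filters, fits on the compared libraries, a replicate block and leaving out each library. The fits were tested on simulated data. The named genes were the 7 members, Epas1, up to 4 called genes of largest change in each wider list (cold against TN averaged over genotypes), any gene of the lists called by genotype, and the 3 genes nearest to each called member. Angptl8 is listed under an older name in the table. Members and lists were chosen with earlier results of these data known. Results of some genes that this rule names are not reported here.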

Additional observations from a re-analysis of the deposited data

How the results depend on the processing

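The number of genes called in the average of cold against TN was 4 under every alternative tried, and 0 of the 7 were called between AKO and WT or for the interaction under any of them. In WT the number called was 2 when edgeR was fitted on the compared libraries only, where Lpl (adjusted p = 0.0845) and Gpihbp1 (0.113) were lost, and 2 to 4 when 1 library was left out. In AKO it was also 2 to 4 when 1 library was left out, and 2 without both libraries with muscle transcripts, an alternative chosen after seeing the data that leaves 2 mice in each AKO group. Without them Lpl (adjusted p = 0.118) and Gpihbp1 (0.160) were lost in AKO, and Gpihbp1 (0.0569) in WT. The labels do not say that the replicate numbers pair the mice. Of 18 pairs with the same number, 5 had deviations correlated above 0.1 (range -0.43 to 0.39), and 3 of 12 libraries correlated best with their own number. With 3 mice per group these correlations cannot exclude a pairing. With the number as a replicate block, Lpl in AKO had 1.15 with adjusted p = 0.0570, and the ratio differences of -1.40 (Angptl4 to Lpl), 0.86 (Gpihbp1 to endothelial markers), -0.81 (Lmf2 to Lmf1) and 0.36 (Lpl to white adipocyte markers) all had adjusted p = 0.0547, the smallest that the block allows. Without both libraries with muscle transcripts these differences were -1.32, 0.81, -0.78 and 0.29, and none of the 4 passed the limit. Leaving out 1 library gave -0.34 to -0.19 for Gpihbp1 to Lpl and 0.31 to 0.45 for Lpl to white adipocyte markers.

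Only log2 fold changes that were not called changed sign, and the cause was not tested. In AKO against WT in the cold, Angptl4 was 0.33 with voom, 0.0077 with the replicate block and 0.040 without the libraries with muscle transcripts, and Lpl was 0.22 with voom and 0.029 with the replicate block. Without the libraries with muscle transcripts, Gpihbp1 in the cold was -0.049 and Vldlr at TN -0.022. With voom, Angptl4 in the average of cold against TN was 0.029, Lmf2 was 0.00052 in AKO against WT at TN and -0.00039 in cold against TN in AKO, and Sel1l in cold against TN in WT was 0.043. Leaving out 1 library gave, for Angptl4, -0.54 to 0.31 in AKO against WT in the cold, -0.37 to 0.14 in the average of cold against TN, -0.26 to 0.45 in AKO and -0.86 to 0.074 in WT. For AKO against WT at TN it gave -0.17 to 0.56 for Gpihbp1, -0.067 to 0.010 for Lmf2, -0.067 to 0.49 for Lpl and -0.046 to 0.31 for Vldlr. In the cold it gave -0.11 to 0.21 for Gpihbp1, -0.23 to 0.35 for Lpl and -0.13 to 0.00038 for Sel1l. For cold against TN it gave -0.031 to 0.054 for Lmf2 in AKO and -0.087 to 0.078 for Sel1l in WT.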

Other observations

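Angptl8 and Angptl4, whose mRNAs are known to rise with feeding and with fasting, were set side by side after their values were seen. In cold AKO the 3 mice had 53.1, 20.7 and 86.6 CPM of Angptl8 and 170, 315 and 127 CPM of Angptl4, so that the order of one was the reverse of the order of the other. In cold WT they had 26.8, 112 and 37.7 CPM of Angptl8 and 214, 115 and 316 CPM of Angptl4, and the mouse with the most Angptl8 again had the least Angptl4. In TN WT this was not so, since both genes were highest in replicate 3, at 11.8 and 488 CPM, and lowest in replicate 2, at 2.78 and 150 CPM. In TN AKO they had 4.52, 33.8 and 30.0 CPM of Angptl8 and 222, 198 and 113 CPM of Angptl4, and the mouse with the least Angptl8 had the most Angptl4. The labels do not give the feeding state or the hour of sampling, and the relation was not tested.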
